A study of Homo sapiens with 3 samples.

Results

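The genes described here are 10 enzymes and transporters of the oxidative stress response in HaCaT cells, an immortalized human keratinocyte line. They are the aldo-keto reductases AKR1B10, AKR1C1, AKR1C2 and AKR1C3, the glutathione synthesis genes GCLC and GCLM, the quinone reductase NQO1, the thioredoxin reductase TXNRD1, the cystine transporter SLC7A11 and the sulfiredoxin SRXN1. They were chosen by name, as known targets of the transcription factor NRF2 and as aldo-keto reductases. The rule itself uses no measured value, but the genes were chosen with earlier results of these data known. Their counts and medians beside those of all genes are therefore a description and no test of the list. All 10 were found among 60506 listed genes and all 10 passed the filter on low values, which left 13923 genes. Cells carried 10 nM of SRSF5 siRNA 1, 10 nM of SRSF5 siRNA 2, or 10 nM of a control siRNA, delivered with a lipid transfection reagent. The labels give the genotype of both SRSF5 siRNA libraries as a knockdown of SRSF5, a serine and arginine rich splicing factor, and that of the control library as wild type. There was 1 library for each siRNA, which gave n = 2 for SRSF5 knockdown, with unlike reagents, and n = 1 for the control. The labels name no separate cultures, so a p-value here measures only the spread between these libraries, which may be technical.

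NRF2, encoded by NFE2L2, is held in the cytoplasm by KEAP1 and sent for degradation. Oxidants and electrophiles modify KEAP1, after which NRF2 enters the nucleus, pairs with a small MAF protein and binds antioxidant response elements near genes for glutathione synthesis, thioredoxin recycling and detoxification. In keratinocytes the pathway is known for protection against ultraviolet light and reactive chemicals, and aldo-keto reductases, which reduce aldehydes and ketones with NADPH, are among its most responsive genes in human cells.

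The levels are FPKM, fragments scaled to transcript length and library size, as the authors deposited them for each transcript. A read was counted for every transcript it overlapped, so the sum over the transcripts of a gene, called the summed FPKM, grows with the number of listed isoforms. It serves to compare libraries. Levels of different genes are compared only by the FPKM of the highest transcript, the isoform of any listed type with the highest mean over the libraries. Ratios are log2 of the summed FPKM plus 1, an SRSF5 siRNA library over the control, and understate differences of low genes. Every ratio shares the same control library. The RNA came from bulk cultures, where fewer cells of a kind and less RNA per cell cannot be told apart.

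SRSF5 itself had a summed FPKM of 44.3 with siRNA 1 and 18.7 with siRNA 2, against 94.1 in the control, or 47.1% of the control with siRNA 1 and 19.8% with siRNA 2. The largest transcripts of all genes held 17708195 equivalents of a 100-base read with siRNA 1, 15864985 with siRNA 2 and 18323681 in the control. Mitochondrial transcripts took 14.8% of the counted bases with siRNA 1, 10.0% with siRNA 2 and 13.7% in the control. All 12 keratinocyte markers were at 1 FPKM or more in every library, and their highest transcripts summed to 1927 FPKM with siRNA 1, 3391 FPKM with siRNA 2 and 1556 FPKM in the control. Of the markers of other cells, 0 of 8 for fibroblasts, 0 of 7 for melanocytes, 0 of 4 for endothelium and 1 of 6 for leukocytes (CD68) reached 1 FPKM, and MLANA, SOX10, TYR and TYRP1 were listed at 0. For the 10 genes, results that differed with mitochondrial transcripts left out of the library totals are given beside them. Ratios and counts of the other gene lists below were not recomputed in that way. The part of the keratinocyte marker sums was not tested.

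Most of the 10 genes were lower with the SRSF5 siRNAs than in the control, by amounts that differed between genes and siRNAs. 7 had a negative ratio with both siRNAs, 1 (TXNRD1) a positive ratio with both, and 2 (SLC7A11 and SRXN1) a positive ratio with siRNA 1 and a negative one with siRNA 2. The TXNRD1 ratio with siRNA 2 was near 0 and turned negative in other scalings, at -0.02 with median scaling and -0.03 with mitochondrial transcripts left out. The median ratio of the 10 was -0.22 with siRNA 1 and -0.59 with siRNA 2, where the median over all 13923 genes was -0.02 with siRNA 1 and 0.05 with siRNA 2. Over all genes 29.4% were negative with both siRNAs and 40.5% had opposite signs. At a size of 1.5-fold or more in both siRNA libraries 1 of the 10 was lower, AKR1C2, and this held for 1.47% of all genes. None of the 10 was 1.5-fold higher in both, against 3.19% of all genes.

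**Figure D1:**
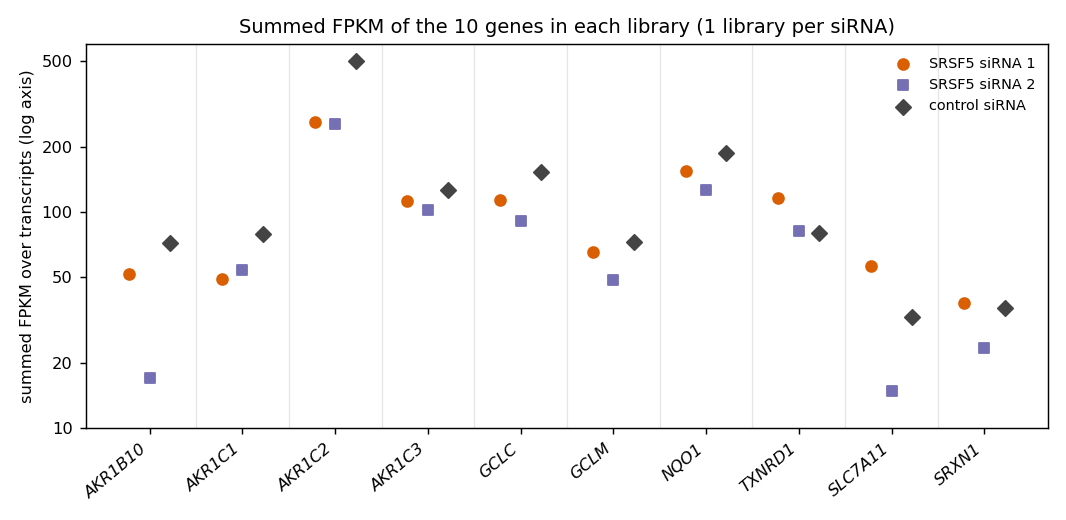
Summed FPKM (log axis) of the 10 genes in the 3 libraries, with 1 point for each library and no error bar because each siRNA has 1 library. The control lies above both SRSF5 siRNA points in 7 genes, TXNRD1 is highest with siRNA 1, and SLC7A11 and AKR1B10 have the widest gaps between the siRNAs.

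The siRNAs differed from each other in these genes. With siRNA 1, AKR1C1 and AKR1C2 were at least 1.5-fold lower than the control, against 5.47% of all genes, and SLC7A11 was at least 1.5-fold higher, against 6.18% of all genes. With siRNA 2, AKR1B10, AKR1C2, GCLC, SLC7A11 and SRXN1 were at least 1.5-fold lower, 5 of the 10 against 10.1% of all genes. That count was 8 of 10 where the ratios were scaled to the median of all genes (11.6% of all genes), and 8 of 10 with mitochondrial transcripts left out of the totals (12.3%), since AKR1C1, GCLM and NQO1 lie close to 1.5-fold. None was 1.5-fold higher with siRNA 2, against 13.2% of all genes. Set directly against siRNA 1, AKR1B10, SLC7A11 and SRXN1 were at least 1.5-fold lower with siRNA 2, against 10.5% of all genes, and none was 1.5-fold higher, against 13.7% of all genes. The members just inside and just outside 1.5-fold (0.58 on the log2 scale) with siRNA 2 were SRXN1 at -0.61 and GCLM at -0.57.

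In limma, fitted to all 13923 genes with the control against both SRSF5 siRNA libraries, none of the 10 genes passed at a Benjamini-Hochberg adjusted p of 0.05, and neither did any other gene (0.0% of all genes). The smallest adjusted p over all genes was 0.104, and the adjusted p of each of the 10 rounded to 1.00. At an unadjusted p below 0.05, 2 of the 10 remained, AKR1C2 (log2 ratio -0.95, SE 0.37) and AKR1B10 (-1.24, SE 0.54), against 416 genes or 2.99% of all. This count of the 10 was 1 with median scaling, with mitochondrial transcripts left out, with no filter on low values and in the robust fit. The robust fit of limma called 3 genes and the fit to the highest transcript called 5 genes over the whole table, with 0 of the 10 among them. The spread of each gene starts from the difference between its siRNA libraries, with 1 residual degree of freedom. limma then draws it toward the trend of the spread over all genes. AKR1C2, with an SD of 0.017 between its own ratios, thus has an SE of 0.37 that is set largely by other genes. The control, which has no replicate, is taken to have that same spread.

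**Figure D2:**
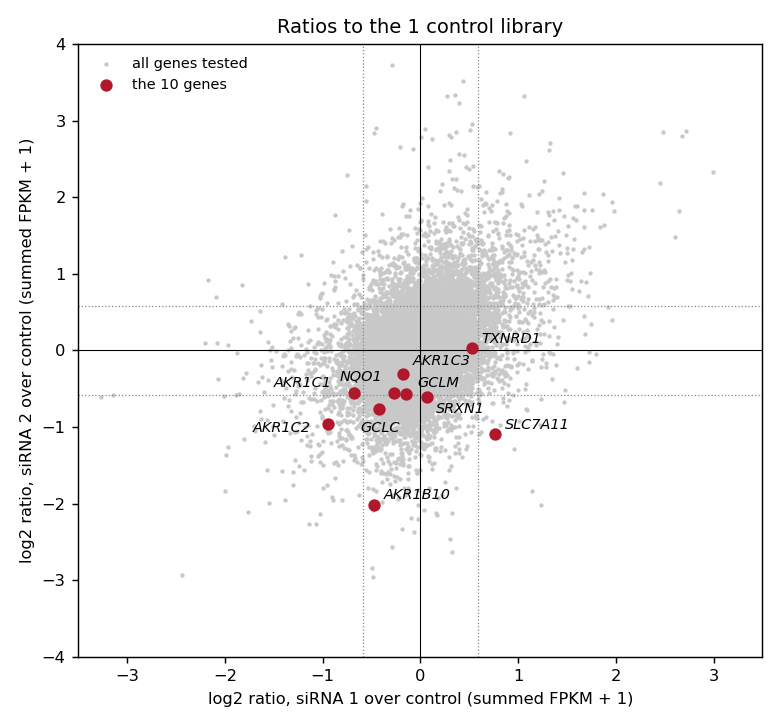
Log2 ratio with siRNA 1 (horizontal) and siRNA 2 (vertical) over the shared control for all genes tested (grey) and the 10 genes (red), with dotted lines at 1.5-fold. AKR1C2 is the 1 red point beyond both lower lines, AKR1B10 sits lowest at -2.01 for siRNA 2, and SLC7A11 sits to the right of and below 0.

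AKR1C2, AKR1C1 and AKR1C3 lie side by side on chromosome 10 and encode steroid-converting reductases of 323 residues each. Their coding sequences are all 972 bases long and nearly alike, so the sequences are given before the values. AKR1C1 and AKR1C2 differ at 19 coding bases (98.0% identity), AKR1C1 and AKR1C3 at 83 (91.5%), and AKR1C2 and AKR1C3 at 87 (91.0%). The stretch of 60 bases that separates AKR1C1 and AKR1C2 most is coding bases 103 to 162, counted from 1 at the A of the start codon. It is shown 5′ to 3′ on the coding strand, with capitals where a base is not that of AKR1C2 (GENCODE transcripts, GRCh38; AKR1C1 at chr10:4965932-4965991 plus strand, AKR1C2 at chr10:5001604-5001663 minus strand, AKR1C3 at chr10:5096428-5096487 plus strand).
AKR1C1: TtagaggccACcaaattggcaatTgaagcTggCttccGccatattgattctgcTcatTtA
AKR1C2: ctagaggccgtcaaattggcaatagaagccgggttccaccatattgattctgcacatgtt
AKR1C3: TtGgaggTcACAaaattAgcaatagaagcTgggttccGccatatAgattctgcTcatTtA
Here AKR1C1 has 10 differences from AKR1C2, and AKR1C3 has 13.

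Near the end of the same coding sequences, bases 897 to 956 hold no difference between AKR1C1 and AKR1C2, while AKR1C3 has 13. The stretch is shown because its bases alone cannot assign a read to AKR1C1 or AKR1C2. A 100-base read also covers bases outside the stretch, which may differ. The stretch crosses an intron in each gene (AKR1C1 at chr10:4975901-4977726 plus strand, AKR1C2 at chr10:4990012-4991863 minus strand, AKR1C3 at chr10:5105645-5107487 plus strand).
AKR1C1: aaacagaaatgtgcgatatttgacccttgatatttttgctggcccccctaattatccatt
AKR1C2: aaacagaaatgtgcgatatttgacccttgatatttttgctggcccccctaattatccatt
AKR1C3: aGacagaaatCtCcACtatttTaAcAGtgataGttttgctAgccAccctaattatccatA
The longest run without a difference is 189 coding bases between AKR1C1 and AKR1C2, 171 between AKR1C2 and AKR1C3, and 112 between AKR1C1 and AKR1C3, all longer than a 100-base read. The 100-base windows of 1 GENCODE coding transcript of each gene were searched for in the other aldo-keto reductase genes. Unchanged matches were found for 32.9% of those of AKR1C2-201, 17.4% of AKR1C1-202 and 4.98% of AKR1C3-201. GENCODE transcripts can differ from the deposited ones. AKR1C3-201 has 1708 windows there, while the deposited transcript of that name has 1186 bases. The sources used here do not give how reads with several matches were placed, so levels of AKR1C1 and AKR1C2 are uncertain by an unknown amount.

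AKR1C2, which reduces the androgen dihydrotestosterone, was the highest of the 10 genes in every library. Its highest transcript, AKR1C2-202 (1481 bases), had 70.0 FPKM with siRNA 1 and 68.9 FPKM with siRNA 2, against 133.0 FPKM in the control. The summed FPKM over 10 listed transcripts was 261.8 with siRNA 1 and 257.4 with siRNA 2, against 503.8 in the control. Both SRSF5 siRNA libraries thus lay together, at 52.0% of the control with siRNA 1 and 51.1% with siRNA 2. The ratio averaged -0.95 ± 0.017 (SD, n = 2), with a counting error of 0.025 on each ratio. The log2 ratio of siRNA 2 over siRNA 1 was -0.02 as deposited, -0.09 with median scaling and -0.10 with mitochondrial transcripts left out. The 6 AKR1C2 transcripts above 0.5 FPKM in the control (ENSG00000151632.17, chromosome 10, 4987400 to 5018031, minus strand) lay between 49.7% and 53.0% of the control with siRNA 1 and between 49.9% and 52.2% with siRNA 2.

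AKR1C1, which inactivates progesterone (ENSG00000187134.14, chromosome 10, 4963253 to 4983283, plus strand), was also lower in both. Its 5 transcripts summed to 49.1 FPKM with siRNA 1 and 53.9 FPKM with siRNA 2, against 79.5 FPKM in the control. The highest transcript, AKR1C1-203 (744 bases), had 24.6 FPKM with siRNA 1, 26.9 with siRNA 2 and 39.6 in the control. By the sum these are 61.8% of the control with siRNA 1 and 67.8% with siRNA 2, and the ratio averaged -0.62 ± 0.093 (SD, n = 2). AKR1C1 passed the 1.5-fold size with siRNA 1 (-0.68) and was short of it with siRNA 2 (-0.55). Scaled to the median of all genes, its ratios were -0.66 with siRNA 1 and -0.60 with siRNA 2, past 1.5-fold with both.

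AKR1C3 makes testosterone from androstenedione and acts on prostaglandins. This gene (ENSG00000196139.14, chromosome 10, 5035354 to 5107686, plus strand) lay nearer to the control than its neighbours did. Its 11 transcripts summed to 112.3 FPKM with siRNA 1 and 102.6 FPKM with siRNA 2, against 126.8 FPKM in the control, and AKR1C3-202 (972 bases) had 22.2 FPKM with siRNA 1, 20.8 with siRNA 2 and 27.9 in the control. The ratios were -0.17 with siRNA 1 and -0.30 with siRNA 2, short of 1.5-fold with either siRNA. Its protein-coding transcripts had a median of 81.7% of the control with siRNA 1 and 75.5% with siRNA 2, and its other transcripts had medians of 97.6% with siRNA 1 and 86.6% with siRNA 2. AKR1C4, the remaining gene of the cluster, did not pass the filter on low values, with a summed FPKM of 0.53 with siRNA 1, 0.59 with siRNA 2 and 0.73 in the control.

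AKR1B10, which reduces retinaldehyde and lipid aldehydes, had the lowest ratio of the 10 genes, with siRNA 2. This gene (ENSG00000198074.10, chromosome 7, 134527567 to 134541412, plus strand) had a summed FPKM over 4 transcripts of 51.6 with siRNA 1 and 17.1 with siRNA 2, against 72.0 in the control. AKR1B10-202 (869 bases) had 19.1 FPKM with siRNA 1, 6.51 with siRNA 2 and 27.3 in the control. The siRNA 1 library was at 71.7% of the control and the siRNA 2 library at 23.7%, with ratios of -0.47 with siRNA 1 and -2.01 with siRNA 2 and counting errors of 0.061 for siRNA 1 and 0.091 for siRNA 2. The mean ratio of -1.24 had an SD of 1.09 (n = 2), so the siRNAs lay farther from each other (-1.54) than siRNA 1 lay from the control. All 4 transcripts shared the pattern, between 70.1% and 74.5% with siRNA 1 and between 23.4% and 23.9% with siRNA 2, although they share reads and are not separate measurements. AKR1B10 shares 2.01% of its 100-base windows with AKR1B15 or the pseudogene AKR1B10P1. AKR1B15 had a summed FPKM of 1.07 with siRNA 1, 0.59 with siRNA 2 and 1.37 in the control.

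The 5 genes whose pair of ratios lay nearest to that of AKR1B10, by Euclidean distance over the siRNA 1 and siRNA 2 ratios of the 3 libraries, were MAPRE1 (distance 0.037), PDZD8 (0.073), ELOVL5 (0.082), GDE1 (0.18) and MANEA (0.20). MAPRE1 had a summed FPKM of 46.9 with siRNA 1 and 15.7 with siRNA 2, against 67.0 in the control. None of the other 9 genes described here was among these 5. With 5 taken from 13923 genes, any 9 genes would seldom be among them, so this absence tells nothing about the 9.

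SLC7A11, the cystine importer that supplies cysteine for glutathione, was higher with siRNA 1 and lower with siRNA 2. This gene (ENSG00000151012.13, chromosome 4, 138164097 to 138242349, minus strand) had a summed FPKM over 2 transcripts of 56.5 with siRNA 1 and 14.9 with siRNA 2, against 32.8 in the control. SLC7A11-202 (797 bases) had 32.5 FPKM with siRNA 1, 8.88 with siRNA 2 and 20.1 in the control, and SLC7A11-201 had 24.0 FPKM with siRNA 1, 5.97 with siRNA 2 and 12.7 in the control. The siRNA 1 library was at 172.4% of the control and the siRNA 2 library at 45.3%, on opposite sides of it. The ratios were 0.77 with siRNA 1 and -1.09 with siRNA 2, with counting errors of 0.024 for siRNA 1 and 0.035 for siRNA 2, and the log2 ratio of siRNA 2 over siRNA 1 was -1.86. The mean ratio of -0.16 ± 1.32 (SD, n = 2) therefore describes neither library. SLC3A2, the partner chain of the transporter, named outside the rule, had a summed FPKM of 629.9 with siRNA 1 and 446.1 with siRNA 2, against 711.5 in the control.

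GCLC and GCLM encode the catalytic and the modifier subunit of glutamate-cysteine ligase, which makes the first bond of glutathione. GCLC (ENSG00000001084.13, chromosome 6, 53497341 to 53616970, minus strand) had a summed FPKM over 14 transcripts of 114.5 with siRNA 1 and 90.7 with siRNA 2, against 154.4 in the control. GCLC-201 (597 bases) had 12.7 FPKM with siRNA 1, 10.3 with siRNA 2 and 17.6 in the control. The sums are 74.2% of the control with siRNA 1 and 58.7% with siRNA 2, with a mean ratio of -0.59 ± 0.24 (SD, n = 2). GCLM (ENSG00000023909.10, chromosome 1, 93885199 to 93909456, minus strand) had a summed FPKM over 4 transcripts of 65.6 with siRNA 1 and 48.5 with siRNA 2, against 72.5 in the control. GCLM-203 (625 bases) had 28.9 FPKM with siRNA 1, 19.9 with siRNA 2 and 30.4 in the control. GCLM was thus closer to the control than GCLC with each siRNA, at 90.4% with siRNA 1 and 66.8% with siRNA 2, and its mean ratio was -0.36 ± 0.30 (SD, n = 2). Both subunits were lower with siRNA 2 than with siRNA 1, with log2 ratios of siRNA 2 over siRNA 1 of -0.33 for GCLC and -0.43 for GCLM, short of 1.5-fold. GCLM itself was short of 1.5-fold below the control with siRNA 2 (-0.57) and past it with median scaling (-0.62) and by its highest transcript.

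NQO1, which reduces quinones without releasing radicals (ENSG00000181019.13, chromosome 16, 69706996 to 69726668, minus strand), was lower with both siRNAs. Its 7 transcripts summed to 155.8 FPKM with siRNA 1 and 127.4 FPKM with siRNA 2, against 188.5 FPKM in the control, and NQO1-206 (892 bases) had 30.7 FPKM with siRNA 1, 25.9 with siRNA 2 and 37.1 in the control. The sums are 82.6% of the control with siRNA 1 and 67.6% with siRNA 2, and the mean ratio was -0.42 ± 0.20 (SD, n = 2). The siRNA 2 ratio was -0.56, short of 1.5-fold, and -0.61 with median scaling, past it. The antisense transcript AC092115.2 held at most 0.13 FPKM in any library.

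TXNRD1 and SRXN1 return oxidized thioredoxin and oxidized peroxiredoxins to their active forms. TXNRD1 (ENSG00000198431.16, chromosome 12, 104215779 to 104350307, plus strand) had a summed FPKM over 24 transcripts of 115.9 with siRNA 1 and 81.6 with siRNA 2, against 80.0 in the control. TXNRD1-220 (557 bases) had 11.6 FPKM with siRNA 1, 8.08 with siRNA 2 and 7.59 in the control. Only siRNA 1 stood apart from the control, at 144.8% against 102.0% with siRNA 2. The siRNA 1 ratio of 0.53, with a counting error of 0.077, was just short of 1.5-fold, and the mean over the siRNAs was 0.28 ± 0.35 (SD, n = 2). SRXN1 (ENSG00000271303.1, chromosome 20, 646615 to 653370, minus strand) has 1 listed transcript, SRXN1-201 (2698 bases), which had 38.0 FPKM with siRNA 1 and 23.4 FPKM with siRNA 2, against 36.2 FPKM in the control. Here siRNA 2 stood apart, at 64.8% of the control, while siRNA 1 was at 105.0%, for ratios of 0.07 with siRNA 1 and -0.61 with siRNA 2. SRXN1-201 shares 2292 exon bases on the same strand with the coding transcript AL121758.1-201 (35.3 FPKM with siRNA 1, 21.9 FPKM with siRNA 2, 34.2 FPKM in the control), and reads of the shared bases cannot be told apart.

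By the highest transcript in the control, AKR1C2 ranked 164th among all genes, followed by AKR1C1 (716th), NQO1 (778th), SRXN1 (802nd), GCLM (1000th), AKR1C3 (1092nd), AKR1B10 (1115th), SLC7A11 (1539th), GCLC (1772nd) and TXNRD1 (3951st). AKR1C1, NQO1 and SRXN1 were within 36.2 to 39.6 FPKM of each other there, and AKR1C3 and AKR1B10 within 27.3 to 27.9 FPKM. With 1 control library the order of such neighbours has no replicate check. The ranked transcripts of AKR1B10 and GCLM (lncRNA), SLC7A11 (nonsense-mediated decay) and GCLC (retained intron) are not listed as protein coding. The highest protein-coding transcript in the control had 19.05 FPKM for AKR1B10, 18.31 for GCLM, 14.23 for GCLC and 12.69 for SLC7A11. By these levels GCLC lay above SLC7A11, and AKR1B10 and GCLM both lay below AKR1C3 (27.9 FPKM).

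**Figure D3:**
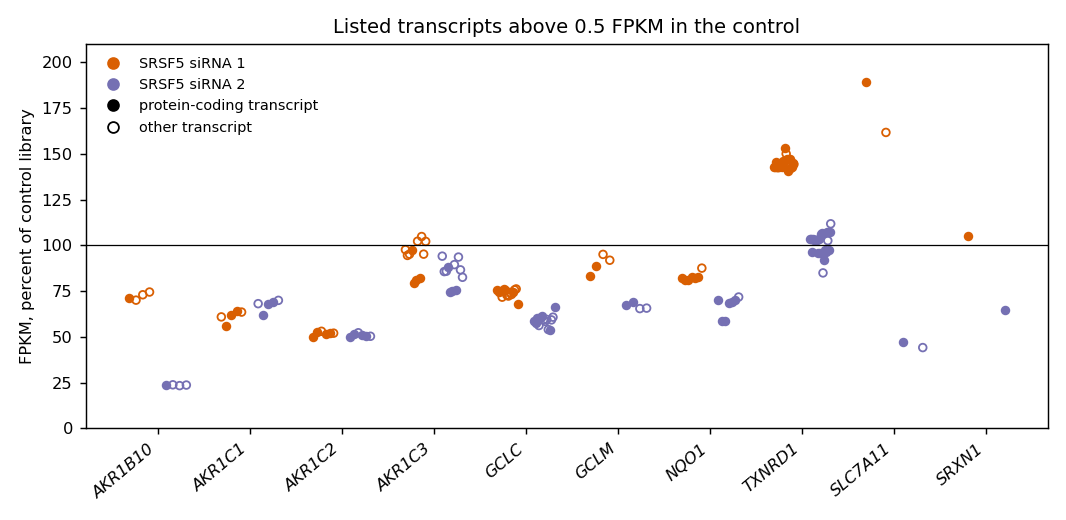
FPKM of each listed transcript above 0.5 FPKM in the control, as a percent of the control library, with siRNA 1 at the left and siRNA 2 at the right of each gene and open circles for transcripts that are not protein coding. Transcripts of a gene share reads and stay close together, and AKR1C3 has the clearest split, with most of its protein-coding transcripts below the others.

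Where a listed transcript lies wholly inside a longer one, the difference between them gives the level of the bases outside it. Among the 10 genes 22 such regions in 6 genes held at least 20 read equivalents in some library. With siRNA 1, 0 of the 22 were at least 1.5-fold lower than their nested transcript relative to the control, against 0.872% of 25688 such regions in all genes. With siRNA 2, 3 of the 22 were, against 1.76% of all, and these 3 overlap each other in NQO1. The NQO1 region, the bases of NQO1-201 outside NQO1-206, is mainly 1 block on chromosome 16 from 69709401 to 69710961, and all 1561 bases of the block lie past the stop codon. It had 4.85 FPKM with siRNA 1 and 1.44 FPKM with siRNA 2, against 6.42 FPKM in the control (334 read equivalents with siRNA 1, 97.0 with siRNA 2 and 467 in the control). The region was thus at 75.5% of the control with siRNA 1 and 22.5% with siRNA 2, where NQO1-206 was at 82.6% with siRNA 1 and 69.9% with siRNA 2. Its log2 ratio relative to NQO1-206 was -0.13 (counting error 0.12) with siRNA 1 and -1.64 (counting error 0.17) with siRNA 2. The region was chosen from the 22 after its values were seen, and with 1 library for each siRNA there is no test.

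The ends of AKR1C1 and AKR1C2 were lower, relative to the control, than their nested transcripts with both siRNAs, short of 1.5-fold. These regions were picked from the same 22, and the share of all regions at this size was not computed. The other AKR1C regions of the 22 had relative log2 ratios between -0.14 and 0.04 with siRNA 1 and between 0.02 and 0.07 with siRNA 2. The bases of AKR1C2-201 outside AKR1C2-202, mainly the block from 4987400 to 4989433 past the stop codon, were at 36.6% of the control with siRNA 1 and 41.3% with siRNA 2, where AKR1C2-202 was at 52.6% with siRNA 1 and 51.8% with siRNA 2. The relative log2 ratios were -0.52 with siRNA 1 (counting error 0.070) and -0.33 with siRNA 2 (0.068). The bases of AKR1C1-202 outside AKR1C1-203, mainly the block from 4977700 to 4983283, were at 47.0% with siRNA 1 and 52.3% with siRNA 2, where AKR1C1-203 was at 62.1% with siRNA 1 and 68.0% with siRNA 2. The relative log2 ratios of AKR1C1 were -0.40 with siRNA 1 and -0.38 with siRNA 2 (counting error 0.11 for each). In these end blocks 26.1% of the 100-base windows of AKR1C2 and 15.5% of those of AKR1C1 occur unchanged in another aldo-keto reductase gene, and the part of shared reads in these values was not tested. The end of SLC7A11-201 outside SLC7A11-202 was at 193.6% of the control with siRNA 1 and 47.5% with siRNA 2, on the same sides as the nested transcript (161.7% with siRNA 1 and 44.2% with siRNA 2).

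**Figure D4:**
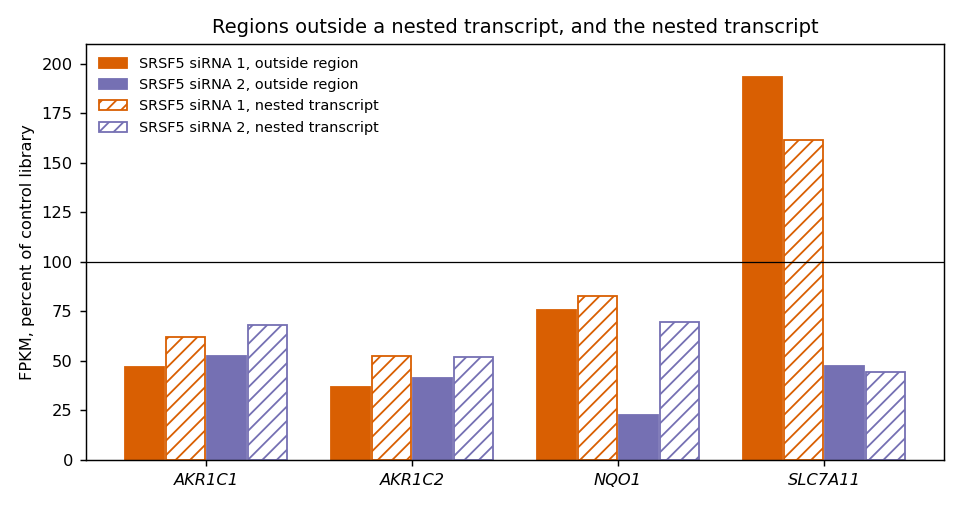
FPKM as a percent of the control library for the bases outside a nested transcript (filled bars) and for the nested transcript itself (hatched bars) in 4 genes, with siRNA 1 and siRNA 2 in separate colours and no error bars. In NQO1 the outside region with siRNA 2 (22.5%) lies far below its nested transcript (69.9%), and in the other 3 genes both kinds of bar lie on the same side of the control.

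Promoters of 8 of the 10 genes, 10 sequences of 300 bases from 250 bases before to 50 after each start, were taken from RefSeq (GRCh38.p14). They were searched on both strands for TGACNNNGC, the core of the antioxidant response element, the only motif searched. These letters occur in 13.3% of all 35116 promoters given there, and 3 of the 10 sequences hold them, 1 of GCLM and 2 of TXNRD1. The matches are shown with their flanks on the strand of the gene, with the motif in capitals, to set the letters beside the values of GCLM, which was lower with both siRNAs, and of TXNRD1, which was higher with siRNA 1. The GCLM match (chr1:93909431-93909489, minus strand) begins 34 bases before the start and reads TGACNNNGC on the opposite strand. The first TXNRD1 match (chr12:104215655-104215713, plus strand) begins 99 bases before the upstream start and reads it on the same strand. The TXNRD1 match at the downstream start (chr12:104286905-104286963, plus strand) begins 102 bases before it on the opposite strand. A further TXNRD1 match, not printed, begins 8 bases before the upstream start.
GCLM: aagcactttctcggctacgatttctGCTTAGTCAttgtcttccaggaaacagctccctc
TXNRD1 upstream start: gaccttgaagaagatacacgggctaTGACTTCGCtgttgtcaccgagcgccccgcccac
TXNRD1 downstream start: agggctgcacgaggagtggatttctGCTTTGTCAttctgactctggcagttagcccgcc
A match is a description of the letters, and its absence from the other windows says nothing of sites elsewhere.

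Of the 13 listed regulators of the pathway, 12 passed the filter, with median ratios of -0.01 with siRNA 1 and 0.03 with siRNA 2. None was 1.5-fold lower with both siRNAs, against 1.47% of all genes, or 1.5-fold higher with both, against 3.19%. NFE2L2, which encodes NRF2, had a summed FPKM of 65.6 with siRNA 1 and 58.5 with siRNA 2, against 85.7 in the control (log2 ratios -0.38 with siRNA 1 and -0.54 with siRNA 2). KEAP1 had 54.9 FPKM with siRNA 1, 59.7 with siRNA 2 and 69.2 in the control (log2 ratios -0.33 with siRNA 1 and -0.21 with siRNA 2). BACH1, a repressor that competes for antioxidant response elements, had 11.2 with siRNA 1 and 19.5 with siRNA 2, against 8.93 in the control (log2 ratios 0.30 with siRNA 1 and 1.05 with siRNA 2). MAFF, a small MAF partner, had 7.18 FPKM with siRNA 1, 17.4 with siRNA 2 and 10.6 in the control (log2 ratios -0.51 with siRNA 1 and 0.66 with siRNA 2). The other small MAF genes had ratios of -0.26 with siRNA 1 and -0.23 with siRNA 2 (MAFG) and 0.11 with siRNA 1 and 0.25 with siRNA 2 (MAFK). SQSTM1, whose protein binds KEAP1, was at 0.11 with siRNA 1 and -0.33 with siRNA 2, and NFE2L1, a relative of NFE2L2, at 0.27 with siRNA 1 and -0.15 with siRNA 2. The remaining degradation genes CUL3, RBX1, BTRC and GSK3B had ratios between -0.11 and 0.15, and BACH2 did not pass the filter.

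The other NRF2 targets, 47 on the list and 42 tested, had median ratios of -0.16 with siRNA 1 and -0.28 with siRNA 2. They were negative with both siRNAs in 28 genes and positive with both in 5, and limma called 0 of them after adjustment over all genes (5 at an unadjusted p below 0.05, against 2.99% of all genes). With siRNA 1, 6 were at least 1.5-fold lower (5.47% of all genes) and 1 higher (6.18%). With siRNA 2, 14 were lower (10.1% of all genes) and 2 higher (13.2%). In both libraries 3 were at least 1.5-fold lower (1.47% of all genes) and 1 higher (3.19%). The lower ones were ABCC3, an exporter of conjugates, at 23.0 summed FPKM with siRNA 1, 17.7 with siRNA 2 and 54.1 in the control, UGDH, which makes UDP-glucuronate, at 31.6 FPKM with siRNA 1, 46.3 with siRNA 2 and 80.6 in the control, and IDH1, an NADPH-making dehydrogenase, at 170.3 FPKM with siRNA 1, 139.6 with siRNA 2 and 287.1 in the control. The higher one was ABCC2, another conjugate exporter, at 10.5 FPKM with siRNA 1, 11.5 with siRNA 2 and 3.77 in the control. The largest ratios with 1 siRNA belonged to CYP4F11 (-0.23 with siRNA 1 and -1.95 with siRNA 2) and ALDH3A1, an aldehyde dehydrogenase of epithelia (-1.86 with siRNA 1 and -0.57 with siRNA 2).

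Further targets are named here after their values were seen, and 3 of those named were at least 1.5-fold lower with siRNA 2 and not with siRNA 1. TALDO1, the transaldolase of the pentose phosphate pathway, had ratios of -0.20 with siRNA 1 and -1.33 with siRNA 2. ME1, the NADP-dependent malic enzyme, was at -0.12 with siRNA 1 and -1.08 with siRNA 2, and EPHX1, the microsomal epoxide hydrolase, at 0.06 with siRNA 1 and -1.25 with siRNA 2. PGD was at -0.42 with siRNA 1 and -0.54 with siRNA 2 and TKT at 0.01 with siRNA 1 and 0.22 with siRNA 2. HMOX1, the heme oxygenase that both NRF2 and BACH1 control, was lower with siRNA 1 and higher with siRNA 2, with a summed FPKM of 429.0 with siRNA 1 and 1299 with siRNA 2, against 616.3 in the control (log2 ratios -0.52 with siRNA 1 and 1.07 with siRNA 2).

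Of the other aldo-keto reductases 5 passed the filter, with median ratios of -0.10 with siRNA 1 and 0.14 with siRNA 2. KCNAB2, a potassium channel beta subunit of the same fold, had 3.27 summed FPKM with siRNA 1 and 3.56 with siRNA 2, against 1.67 in the control. It was 1.5-fold higher with both, as were 3.19% of all genes. The highest transcript of KCNAB2 held at most 0.13 FPKM in any library, so its sum is made of transcripts that are each near 0. AKR1B15 had ratios of -0.20 with siRNA 1 and -0.58 with siRNA 2. The other 3 tested, named to complete the count, were AKR1A1 (-0.52 with siRNA 1 and -0.23 with siRNA 2), AKR1B1 (0.25 with siRNA 1 and 0.18 with siRNA 2) and AKR7A2 (-0.10 with siRNA 1 and 0.14 with siRNA 2), all short of 1.5-fold. In the glutathione and thioredoxin list 25 genes were tested, with medians of -0.06 with siRNA 1 and -0.03 with siRNA 2. Of these 1 was 1.5-fold lower in both, against 1.47% of all genes. That gene was CHAC1, which degrades glutathione, with ratios of -1.02 for siRNA 1 and -0.65 for siRNA 2. TXNIP, an inhibitor of thioredoxin, had ratios of -1.09 with siRNA 1 and -0.16 with siRNA 2. GGT1, which cleaves extracellular glutathione, is listed under 2 identifiers. ENSG00000100031.19 (9.73 summed FPKM in the control) had ratios of 0.18 with siRNA 1 and 1.15 with siRNA 2. The other, ENSG00000286070.1 (65.5 FPKM in the control), had -0.22 with siRNA 1 and 0.17 with siRNA 2.

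SLC7A11 is also a target of ATF4, the transcription factor of the amino acid response, so that list is set beside it. Its 17 tested genes had medians of -0.35 with siRNA 1 and -0.15 with siRNA 2. The medians over all genes were -0.02 with siRNA 1 and 0.05 with siRNA 2. CHAC1 and DDIT4 were 1.5-fold lower in both libraries, against 1.47% of all genes. DDIT4, an inhibitor of mTORC1 signalling, had 113.6 summed FPKM with siRNA 1 and 123.0 with siRNA 2, against 188.3 in the control. PSAT1, of serine synthesis, had ratios of -1.32 with siRNA 1 and -0.15 with siRNA 2, and the amino acid transporter SLC7A5 -0.49 with siRNA 1 and -1.30 with siRNA 2. SLC7A11 was on the other side of 0 from the list's median with siRNA 1 (0.77) and on the same side with siRNA 2 (-1.09). ATF4 itself, named outside the rule, had 123.2 summed FPKM with siRNA 1 and 184.3 with siRNA 2, against 135.3 in the control.

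**Figure D5:**
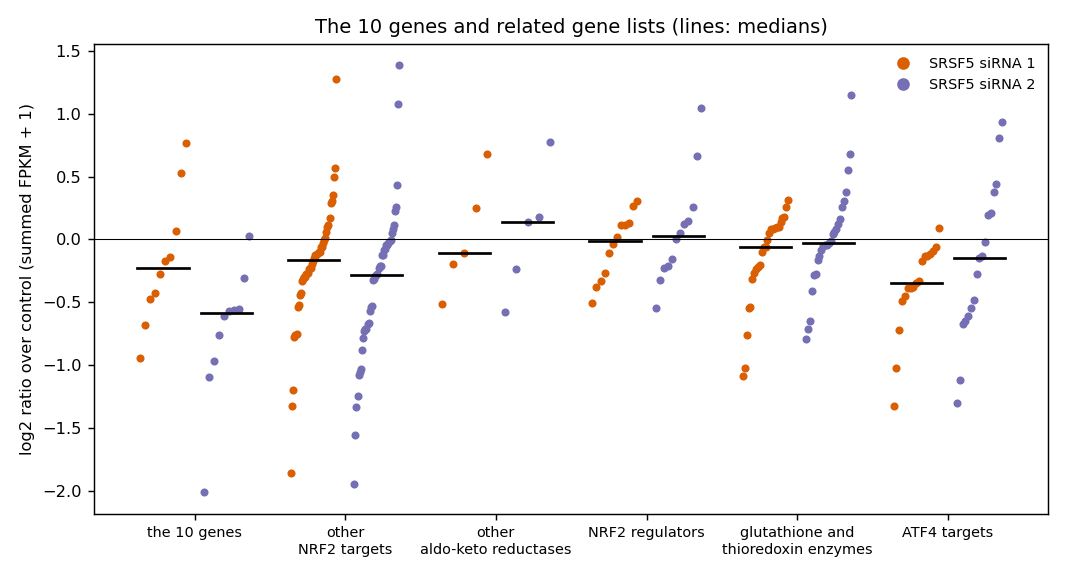
Log2 ratios over the control of the tested genes of each list, 1 point per gene, with siRNA 1 at the left and siRNA 2 at the right of each list and a line at the median. The 10 genes have the lowest median with siRNA 2 (-0.59), and the medians of the regulators lie near 0, with BACH1 the highest of them at 1.05 with siRNA 2.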

How the data were processed

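RNA of HaCaT cells gave 3 libraries, prepared with a SMARTer kit for mRNA, per the labels' protocols. The deposited values are FPKM per transcript, per the file headers. The submitters' processing notes list the builds GRCh38.p12, GRCm38 and mm10 and no role for them. The aligner and counter were not given in the sources used here. Multiplied by transcript length, 100% of FPKM values came out as whole numbers of counted bases (tolerance 0.05). These multiples gave read equivalents of 100 bases, whose square-root counting errors cover counting only, since PCR can copy a molecule.

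Of 247012 transcripts, 20343 on alternate scaffolds or duplicate regions were left out. Summed FPKM of at least 1 on average left 13923 genes, tested as log2(FPKM + 1) with limma 3.58.1 (trend, R 4.3.3, Benjamini-Hochberg), which was tested on simulated data. No count model was run. The 10 genes and the lists were chosen with earlier results of these data known. Named besides the 10 were all tested NRF2 regulators, genes 1.5-fold or more from the control on the same side with both siRNAs, and the 2 with the largest ratio per list. TALDO1, ME1, EPHX1, PGD, TKT, HMOX1, SLC3A2, ATF4, AKR1A1, AKR1B1 and AKR7A2 were named outside this rule, after their values were seen. Alternatives covered the gene level, pseudocount, filter, scaling, fold size, limma settings and each library left out. Coding sequences came from GENCODE on GRCh38.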

Additional observations from a re-analysis of the deposited data

How the results depend on the processing

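The count of the 10 genes that were 1.5-fold or more below the control with both siRNAs was 1 as reported (1.47% of all genes). It was 2 with median scaling (1.57% of all genes) and 2 with mitochondrial transcripts left out of the totals (1.65%), where AKR1C1 joined AKR1C2. At 2-fold the count was 0, and the share of all genes at 2-fold was not computed, so this count has no background beside it. Without the siRNA 1 library 5 genes were lower (10.1% of all genes) and 0 higher (13.2%). Without the siRNA 2 library 2 were lower (5.47% of all genes) and 1 higher (6.18%). The count lower with siRNA 2 was 5 as reported (10.1% of all genes). It was 8 with median scaling (11.6%) and 8 with mitochondrial transcripts left out (12.3%). The median ratio of the 10 lay between -0.29 and -0.20 for siRNA 1 and between -0.65 and -0.57 for siRNA 2. limma called 0 of the 10 in each of its settings. Mean ratios that changed sign with 1 siRNA library left out were those of SLC7A11 (-0.16 with both, 0.77 without siRNA 2) and SRXN1 (-0.27 with both, 0.07 without siRNA 2), neither past 1.5-fold on 1 side in both libraries. No transcript of the AKR1C genes shared exon bases with another, so that alternative left every value as it was. No paired analysis was possible because there was 1 control library. The control cannot be left out, so its own spread is unknown, and depth limits AKR1B10 and TXNRD1 most among the 10.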
